A study of Mus musculus with 31 samples.

Results

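The 8 subunit genes of the cytosolic chaperonin TRiC (Tcp1, Cct2, Cct3, Cct4, Cct5, Cct6a, Cct7 and Cct8) and both genes of the mitochondrial chaperonin system (Hspd1 and Hspe1) were followed through 4 conditions of mouse squamous cell carcinoma (SCC) cells. These 10 genes were taken by name, from 20704 genes in the table of ribosome-protected fragments (RPFs) and 24593 in the table of total RNA, and all 10 were in both tables and above the filter on low counts. RPFs are the pieces of mRNA that translating ribosomes cover, so their count for a gene follows its mRNA and the number of ribosomes on it. Translation efficiency (TE) is used here for the RPF level relative to the total RNA level.

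The cells were keratinocytes labelled HRasG12V and TgfbrII fl/fl, whereas the study's list of cell lines gives S51 and S51A a deleted TgfbrII, and in them a Myc-tagged Eif2s1 transgene, driven by the PGK promoter, had replaced the endogenous gene for eIF2α, ablated by CRISPR. S51 cells carried wild-type eIF2α and could mount the integrated stress response (ISR). S51A cells carried an alanine in place of the phosphorylated serine and were ISR-null. Both lines came from single-cell clones, and the libraries are not tied to a clone by their labels. Differences between the lines therefore cannot be told apart from differences between clones. Cells received vehicle (DMSO) or 100 nM bortezomib, an inhibitor of the proteasome, for 4.5 h by the labels and 4 h by the study's figure legend. Each group had 4 libraries of total RNA and 4 of RPFs, except that S51 vehicle had 3 of RPFs. The study describes its replicates as technical in one place and as independent in another, so p-values measure the spread between these libraries, which may be technical.

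TRiC, also called CCT, is a closed double ring in which each ring holds 1 copy of each of 8 related subunits, and it folds actin, tubulin and many proteins with WD repeats after they leave the ribosome or the prefoldin complex. All 8 subunits are needed to close the complex. Hspd1 encodes HSP60, which forms the folding chamber of the mitochondrial matrix, and Hspe1 encodes HSP10, the lid of that chamber. Mitochondrial chaperonin genes are classical targets of heat shock factor 1 (HSF1), the transcription factor that binds inverted GAA repeats when unfolded proteins accumulate.

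In the RefSeq annotation of GRCm38.p6 (mm10), Tcp1 lay on chromosome 17 from 12916329 to 12925067, Cct2 on chromosome 10 from 117050997 to 117063852 and Cct3 on chromosome 3 from 88297135 to 88321766. Cct4 lay on chromosome 11 from 22990593 to 23003336, Cct5 on chromosome 15 from 31590800 to 31601846 and Cct6a on chromosome 5 from 129787356 to 129846443. Cct7 lay on chromosome 6 from 85451505 to 85468477 and Cct8 on chromosome 16 from 87483325 to 87495869. Hspd1 and Hspe1 stood head to head on chromosome 1, Hspd1 on the minus strand from 55077833 to 55088243 and Hspe1 on the plus strand from 55088148 to 55091317. The TRiC subunits had coding sequences of 1467 to 1671 nt, Hspd1 one of 1722 nt and Hspe1, the shortest, one of 309 nt. Several of these genes share bases with a neighbour. Tcp1 overlapped Mrpl18 over 1459 nt and Acat3 over 1238 nt, Cct7 overlapped Pradc1 over 483 nt, and the starts of Hspd1 and Hspe1 overlapped over 96 nt. Whether reads were counted by strand is not given in the sources used here, so reads in these stretches cannot be assigned to one gene of a pair, which touches total RNA more than RPFs counted within the coding sequence. Hspe1 and Hspd1 also have 7 and 5 annotated pseudogenes named after them, and Tcp1 and Cct3 have 1 each. Counts of genes with such copies are uncertain to the extent that reads were lost to them.

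RefSeq promoter windows, each reaching from upstream of a transcription start to just inside the transcript, were searched on both strands for inverted GAA repeats, because the cytosolic heat shock genes had the largest median change of the lists examined here. A run of 3 units, GAANNTTCNNGAA, was present in 198 of 32851 windows, or 0.603%. Windows of Hspd1, Hspe1 and, of the TRiC genes, Tcp1, Cct2, Cct3, Cct5, Cct6a, Cct7 and Cct8 were searched, and Cct4 was not. The window of Hspe1 and 1 of the 2 windows of Hspd1 held the 3-unit run, 2 overlapping times at the same bases of chr1:55088053-55088082, and no window of the 7 TRiC genes did. Runs of 2 units, GAANNTTC (7.86% of all windows) and TTCNNGAA (8.52%), which also lie inside the 3-unit run, were found in 1 window each of Cct2, Cct5 and Cct6a. The CARE letters TGATGNAA, bound by ATF4 (3.97% of windows), were in none of the windows searched, and CCAAT (37.4%) was in windows of Tcp1, Cct3, Cct6a, Cct7 and Hspd1. The stretches below, from RefSeq on GRCm38.p6, show the shared heat shock element of the mitochondrial pair beside upstream stretches of Cct5 and Cct2, which hold a 2-unit match, and of Cct3, which had none. The match of Cct6a, at position 24 inside its transcript, is not shown. Capitals mark the bases of a match to a run of GAA units.
Hspe1, chr1:55088053-55088082, plus strand: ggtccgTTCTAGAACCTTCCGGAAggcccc
Cct5, chr15:31601847-31601946, minus strand: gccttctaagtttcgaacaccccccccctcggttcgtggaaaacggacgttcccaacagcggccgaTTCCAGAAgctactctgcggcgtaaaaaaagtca
Cct2, chr10:117063376-117063475, minus strand: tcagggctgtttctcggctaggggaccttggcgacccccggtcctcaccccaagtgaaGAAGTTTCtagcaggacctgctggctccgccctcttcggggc
Cct3, chr3:88297035-88297134, plus strand: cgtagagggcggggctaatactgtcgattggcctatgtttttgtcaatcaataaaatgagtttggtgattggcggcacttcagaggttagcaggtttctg
The elements of Hspe1 began at positions -89 and -84 relative to its start, and lie in the first exon of the longer Hspd1 transcript. The stretch of Cct2 lies before its second annotated start, in an intron of the longer transcript, and that of Cct5 before its first. A match is a description of letters, and binding of a factor was not measured.

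Between 1038826 and 4902237 reads were counted on genes in an RPF library, and between 18758668 and 22994713 in a total RNA library. Levels are given as CPM after TMM normalisation, so they are shares of a library, and a fall or rise of all mRNAs or of all translation together leaves no trace in them. In such bulk libraries, fewer cells and less RNA per cell cannot be told apart. Eif2s1, the replaced gene, stood at 279 to 314 CPM in every total RNA library. In RPF it stood at 81.2 to 171 CPM in S51 vehicle and 148 to 196 CPM in S51 bortezomib. In S51A it stood higher in RPF under vehicle, at 212.6 to 259.8 CPM, and at 190 to 235 CPM under bortezomib. Gene counts do not show the substituted codon. Of 9 epithelial marker genes, 8 stood at 99.2 CPM or more in every total RNA library and Krt17 at 4.43 CPM or less, while the summed markers of fibroblasts, leukocytes, endothelium and melanocytes did not exceed 7.31 CPM. One RPF library, replicate 2 of S51 vehicle, stood apart. Over 1959 genes above 100 CPM, its log2 deviation from the mean of the other libraries of its group had an SD of 0.53, against 0.10 to 0.31 in the other 14 libraries, and all 10 chaperonin genes were lower in it, by a median of -0.74 on the log2 scale with a range from -1.30 (Hspe1) to -0.19 (Cct7). RPF and TE tests that use S51 vehicle are therefore given with and without it.

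Bortezomib raised the total RNA of all 10 chaperonin genes in both lines, by less than 2-fold. In S51, 10 of 10 passed the test (edgeR's quasi-likelihood test, Benjamini-Hochberg adjusted p below 0.05), where 29.7% of 11708 genes were called higher, and their median log2 fold change was 0.46, with the median of all genes at -0.01. In S51A the same 10 passed, against 27.5% of all genes, with a median of 0.34. The groups did not overlap for any member, as every bortezomib library lay above every vehicle library for all 10 genes in S51 and in S51A, which held for 26.8% and 24.3% of all genes. No member passed the study's 2-fold limit for RNA, which 1.96% of genes passed upward in S51 and 1.63% in S51A.

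**Figure D1:**
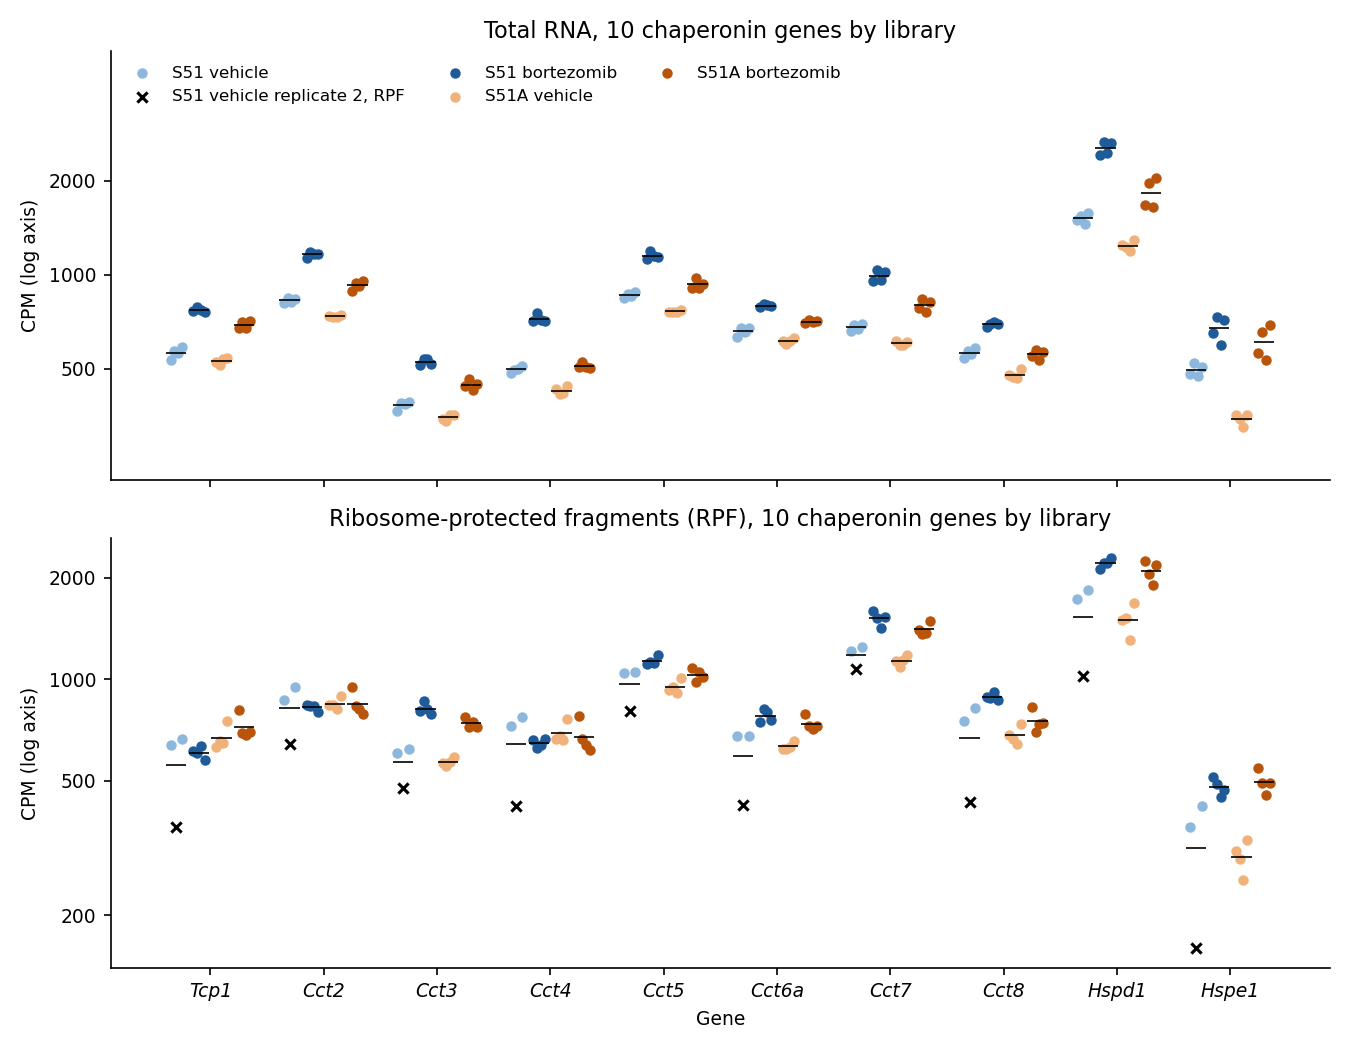
Levels of the 10 chaperonin genes in CPM on a log axis, total RNA above and RPF below, with 1 point per library and a bar at each group's mean. Within each line, total RNA points of bortezomib libraries sit above those of vehicle for every gene. The crosses, RPF replicate 2 of S51 vehicle, are the lowest RPF point of each gene.

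Hspd1 had the largest RNA response of the 10 genes in S51, and Hspe1 and Hspd1 the largest in S51A. Hspd1 stood at 1494, 1539.9, 1455 and 1574 CPM in S51 vehicle and at 2421, 2647.5, 2454 and 2644 CPM in S51 bortezomib, a fold of 1.68 (log2 0.75, SE 0.05, adjusted p = 1.1e-11 by edgeR). Its S51A libraries went from 1188 to 1288 CPM in vehicle to between 1642.5 and 2031 CPM in bortezomib. Hspe1, the HSP10 lid, rose further in S51A than any other member, from 356, 344.5, 326 and 356 CPM to 563, 653.5, 534 and 689 CPM, a fold of 1.77 (log2 0.82, SE 0.07). In S51 it rose 1.36-fold, from between 475 and 520.0 CPM to between 596.5 and 733 CPM. Among the TRiC subunits the log2 changes in S51 were largest for Cct7 (0.55), Cct4 (0.54) and Cct2 (0.49) and smallest for Cct8 (0.30) and Cct6a (0.27). In S51A the order again ended with Cct8 (0.21) and Cct6a (0.21), and Cct7 (0.40) and Tcp1 (0.38) led it. Both comparisons have 4 libraries against 4 and separate controls.

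The RNA responses of the lines differed for 5 members. As an interaction over all 16 libraries, 21.6% of genes passed in either direction, and of the chaperonin genes Cct4 (difference of log2 responses 0.27, SE 0.04, adjusted p = 8.9e-05), Cct2 (0.16), Cct7 (0.14) and Cct5 (0.13) rose more in S51, whereas Hspe1 rose less there (-0.38, SE 0.09, adjusted p = 0.0044). Cct4 total RNA went from 486, 495, 500.4 and 510.0 CPM to 711, 752, 715 and 709.5 CPM in S51. In S51A it went from 429.6, 416, 418 and 439.9 CPM to 505.5, 527, 506 and 503 CPM, so the S51A bortezomib libraries overlapped the S51 vehicle libraries. The calls of Cct5 and Cct7 had adjusted p-values of 0.035 and 0.038 and were both lost, leaving 3 members, without RNA S51 vehicle replicate 1 or 3, S51 bortezomib replicate 2, S51A vehicle replicate 1, 2 or 4, or S51A bortezomib replicate 1 or 3. Without S51A bortezomib replicate 2, 7 members passed, and without its replicate 4, 6.

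Fewer members passed the test in footprints than in RNA, with larger standard errors (0.07 to 0.19 in S51 on the log2 scale, against 0.03 to 0.06 in RNA). In S51, 7 of 10 passed upward in RPF (Cct3, Cct5, Cct6a, Cct7, Cct8, Hspd1 and Hspe1), where 14.8% of 9457 genes did, and the same 7 had every bortezomib library above every vehicle library, as 15.8% of genes had. In S51A, 4 of 10 passed upward (Cct3, Cct7, Hspd1 and Hspe1), where 9.25% of genes did, and 5 had groups that did not overlap, against 13.5% of genes. Hspe1 was past the study's 1.5-fold limit in both lines, which 7.38% of genes passed upward in S51 and 4.19% in S51A. The median RPF log2 fold change of the 10 genes was 0.38 in S51 and 0.18 in S51A, with the medians of all genes at 0.00 and -0.01. The call of Cct5 in S51 (adjusted p = 0.043) was lost in most fits that left out 1 library, that of Cct8 without S51 bortezomib replicate 3 and that of Hspe1 without S51 bortezomib replicate 1. When only the S51 libraries were fitted, 3 members passed.

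Cct3, the gamma subunit, had the largest RPF change within TRiC. Its S51 libraries stood at 603, 477 and 622 CPM in vehicle and at 803.5, 859.9, 815 and 791 CPM in bortezomib (log2 0.52, SE 0.08, adjusted p = 6.83e-05 by edgeR). In S51A it went from between 553 and 590.0 CPM to between 722 and 775 CPM (log2 0.38, SE 0.08, adjusted p = 0.00096). Both groups were apart in both lines. Cct7, the eta subunit, changed by 0.36 in S51 and 0.31 in S51A on the same scale.

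Hspd1 footprints stood at 1727, 1023 and 1842 CPM in S51 vehicle and at 2118, 2212, 2205 and 2289 CPM in S51 bortezomib (log2 0.53, SE 0.13). In S51A they stood at 1495, 1518.5, 1309 and 1680.3 CPM and then at 2246, 2044, 1901 and 2185 CPM (log2 0.48, SE 0.12). Hspe1 footprints stood at 366, 159.5 and 422 CPM in S51 vehicle and at 512, 489.7, 449 and 471 CPM in S51 bortezomib (log2 0.59, SE 0.19). In S51A they stood at 309.8, 293, 254 and 334 CPM and then at 545, 492, 453.5 and 492.5 CPM (log2 0.73, SE 0.17). For both mitochondrial genes the bortezomib libraries lay above all vehicle libraries of the same line, and replicate 2 of S51 vehicle was the lowest of its group.

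Tcp1, Cct2 and Cct4, which encode the alpha, beta and delta subunits, passed in RNA and not in footprints. Cct4 footprints stood at 729, 422 and 772 CPM in S51 vehicle and at 662, 625, 638 and 664 CPM in S51 bortezomib, a log2 fold change of 0.01 with a 95% interval from -0.27 to 0.29. Cct2 footprints stood at 866, 642.5 and 949.6 CPM and then at 838.5, 831, 832.5 and 799.9 CPM (log2 0.01, interval -0.20 to 0.22). Tcp1 footprints stood at 638, 365 and 667 CPM and then at 614, 603.5, 633 and 576 CPM (log2 0.12, interval -0.16 to 0.40). In each of the 3 genes the bortezomib libraries lay below vehicle replicates 1 and 3 and above replicate 2. In S51A the same genes had RPF log2 fold changes of 0.10 (Tcp1), 0.00 (Cct2) and -0.04 (Cct4), and none passed.

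Leaving out replicate 2 of S51 vehicle changed the footprint picture in S51. Then 5 members passed upward (Cct3, 0.42; Hspd1, 0.31; Cct7, 0.30; Hspe1, 0.28; Cct6a, 0.20) and Cct4 passed downward (-0.21, SE 0.08, adjusted p = 0.037 by edgeR), with a median over the 10 genes of 0.19. The changes of Cct5 (0.12) and Cct8 (0.18) no longer passed, and those of Tcp1 and Cct2 turned to -0.10 and -0.14 without passing. Hspe1 was then under 1.5-fold in S51. Of all genes, 1442 of 9597 were called higher in S51 in this fit and 1449 lower. In S51A, whose libraries are unchanged and share only the estimate of spread, the filter and the scaling, Cct6a passed as well (0.23), which made 5. Of all genes, 1392 of 9597 were then called higher in S51A and 1549 lower, against 875 and 1076 of 9457 with the library.

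**Figure D2:**
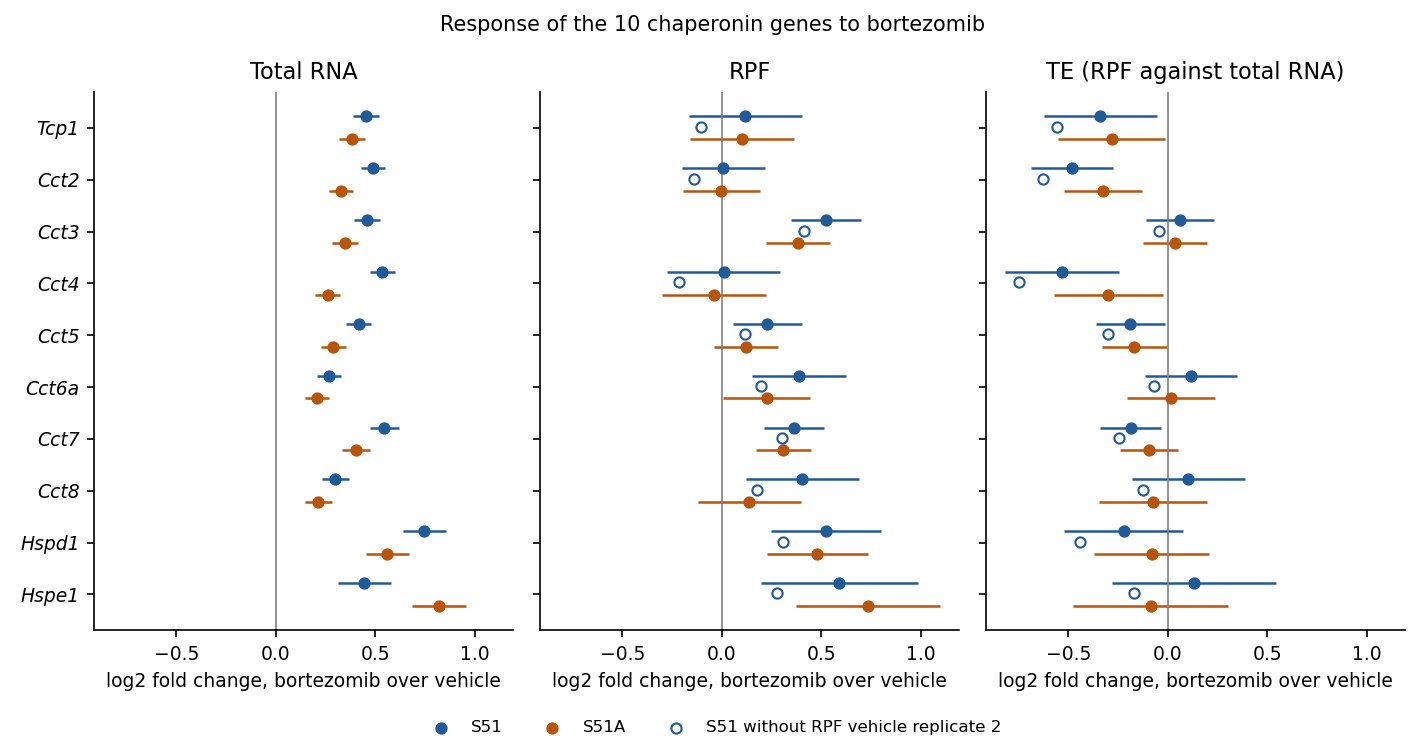
Log2 fold change of bortezomib over vehicle for each gene in total RNA, RPF and TE, in S51 and S51A, as points with 95% intervals. Open circles are the S51 values without RPF vehicle replicate 2, which lie to the left of the filled ones for every gene.

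TE fell for Cct2 and Cct4 in S51. In the joint fit of all 31 libraries their log2 TE changes were -0.48 (SE 0.10, adjusted p = 0.0011) and -0.53 (SE 0.14, adjusted p = 0.012), so 2 of 10 members passed downward, where 7.27% of 9424 genes did. Taken between RPF and total RNA libraries of the same number, log2 TE of Cct2 was 0.09, -0.39 and 0.21 in S51 vehicle and -0.43, -0.51, -0.49 and -0.54 in S51 bortezomib. For Cct4 it was 0.58, -0.23 and 0.62 in vehicle and -0.10, -0.27, -0.16 and -0.10 in bortezomib. The bortezomib libraries of Cct2 lay below every vehicle library, whereas those of Cct4 overlapped vehicle replicate 2. The other 8 members ranged from -0.34 (Tcp1) to 0.13 (Hspe1). None passed in S51A, where 1.35% of genes did in either direction. Log2 changes of -0.33 (Cct2), -0.30 (Cct4), -0.28 (Tcp1) and -0.17 (Cct5) had unadjusted p-values under 0.05 in the edgeR fit, as 616 of 9424 genes had. The difference of the lines' TE responses passed for no member, against 1.72% of genes, and for Cct4 it was -0.23 with an interval from -0.63 to 0.16.

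Without replicate 2 of S51 vehicle, 6 members had a lower TE under bortezomib in S51: Cct4 (-0.75), Cct2 (-0.63), Tcp1 (-0.56), Hspd1 (-0.44), Cct5 (-0.30) and Cct7 (-0.25). Of all genes, 665 of 9559 were called lower in S51 in this fit. In S51A, 3 members passed downward (Cct2, Cct4 and Tcp1), where 156 of 9559 genes did. The difference of responses passed for Cct4 (-0.45, SE 0.11, adjusted p = 0.0099 by edgeR). Cct3, Cct6a, Cct8 and Hspe1 passed in neither fit in S51. Without RPF replicate 1 of S51 vehicle, Cct2 alone passed in S51. In S51A, 1 member passed without RPF S51 vehicle replicate 3 or without RPF S51A bortezomib replicate 1. The shares of all genes for the difference of responses and for these last fits are not given here.

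Under vehicle, the total RNA of all 10 members was lower in S51A than in S51, where 32.4% of genes were called lower, and the log2 differences ran from -0.09 (Tcp1) to -0.52 (Hspe1), with a median of -0.17. Hspe1 stood at 475 to 520.0 CPM in S51 and at 326 to 356 CPM in S51A, with no overlap. The call of Tcp1 (adjusted p = 0.018) was lost without RNA S51 vehicle replicate 4 or S51A vehicle replicate 2. In RPF, 0 of 10 members passed between the lines under vehicle (28.6% of genes passed in either direction). An unadjusted edgeR p under 0.05 was held by 0 of 10 members and by 3728 of 9457 genes. The log2 values of the members ran from -0.10 (Hspe1) to 0.27 (Tcp1). Without replicate 2 of S51 vehicle, Hspe1 (-0.40), Hspd1 (-0.25) and Cct8 (-0.21) passed as lower in S51A, and without its replicate 3, 1 member passed. TE between the lines under vehicle passed for 0 of 10 members, where 0.106% of genes did. An unadjusted edgeR p under 0.05 was held by 4 members and by 1390 of 9424 genes. The median of the 10 log2 TE differences was 0.23 with RPF S51 vehicle replicate 2 and 0.05 without it, where again 0 passed. Without RPF S51 vehicle replicate 3, 4 members passed. Shares of all genes are not given here for the fits under vehicle that left out a library.

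Under bortezomib, total RNA of 9 members was higher in S51 than in S51A, where 32.4% of genes were, from 0.16 (Tcp1) to 0.50 (Cct4) on the log2 scale, and Hspe1 (0.14, adjusted p = 0.053 by edgeR) did not pass, though all 10 passed without RNA S51 bortezomib replicate 1 or 3 or S51A bortezomib replicate 2 or 4. Footprints of 0 of 10 members differed (31.5% of genes did in either direction), with values from -0.25 (Tcp1) to 0.24 (Cct8). No member had an unadjusted edgeR p under 0.05, which 3925 of 9457 genes had. The RPF responses of the lines to bortezomib also differed for 0 of 10 members, against 2.35% of genes. Again no member had an unadjusted edgeR p under 0.05, which 1522 of 9457 genes had. TE was lower in S51 for Cct4 (-0.56, SE 0.14, adjusted p = 0.0067) and Cct2 (-0.36, SE 0.10, adjusted p = 0.016), where 5.09% of genes were lower. S51 vehicle replicate 2 enters the comparisons under bortezomib only through the shared estimate of spread, the filter on low counts and the scaling. Without it, footprints of Tcp1 were lower (-0.25) and those of Cct8 (0.24), Cct3 (0.14) and Cct5 (0.14) higher in S51. TE was then lower for Cct4, Cct2, Tcp1 (-0.41), Hspd1 (-0.40) and Cct7 (-0.21). The SE of the RPF value of Tcp1 went from 0.127 to 0.065, while the value stayed at -0.25. Shares of all genes called without that library are not given here for these contrasts. The RPF response of Hspe1, which uses that library directly, was then smaller in S51 (difference -0.45, SE 0.11, adjusted p = 0.011 by edgeR). Without RPF S51A bortezomib replicate 1, Cct4 was the only member whose TE passed, and without RPF S51 vehicle replicate 3, 3 members did. Each of these contrasts shares groups with the responses above, so they are not separate evidence.

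Per length of counted coding sequence, footprints of the 8 TRiC subunits lay within 3.01-fold of each other in every library. S51A vehicle was the group with the least spread across the 8 subunits. Footprints there ran from 720.4 ± 24.5 CPM per kb for Cct7 (SD, n = 4) and 606 ± 26.9 for Cct5 down to 360.3 ± 9.97 for Cct3. The ranges of Cct6a, Cct4, Cct8 and Tcp1 overlapped those of their neighbours in this order, and Cct7, Cct5, Cct2 and Cct3 stood clear of theirs. Cct7 had the highest footprint level per kb of the 8 in all 15 RPF libraries, and Cct3 the lowest in all 4 S51A vehicle libraries. With bortezomib the lowest level was that of Tcp1 in all 4 S51 libraries and that of Cct4 in 3 of 4 S51A libraries. The coefficient of variation across the 8 subunits was 24.05% ± 1.12 in S51A vehicle and 27.9% ± 4.0 in S51A bortezomib (SD, n = 4), and 32.2% ± 2.5 in S51 bortezomib. In S51 vehicle it was 25.6%, 41.8% and 24.6%, the middle value from replicate 2. Mean TRiC footprint level was 497 ± 21.5 CPM per kb in S51A vehicle, 556 ± 26.6 in S51A bortezomib and 580.2 ± 4.0 in S51 bortezomib. Hspd1 footprints per kb stood at 1.82 ± 0.13 times the TRiC mean in S51A vehicle and at 2.27 ± 0.12 times in S51A bortezomib (SD, n = 4). Unique mapping, sequence content and ribosome speed can each set a gene's footprint level per kb, and their part in these differences was not tested.

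**Figure D3:**
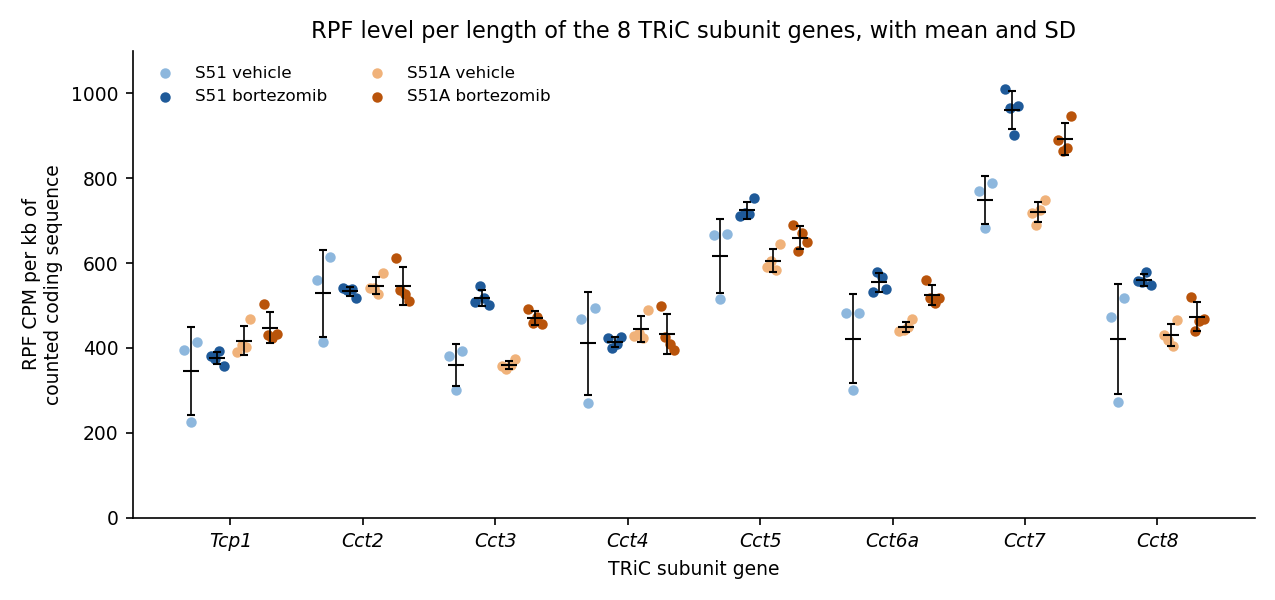
RPF CPM per kb of counted coding sequence for the 8 TRiC subunit genes by group, with 1 point per library, the group mean and its SD. Cct7 lies highest in every group, and the 4 bortezomib libraries of Cct3 lie above its vehicle libraries in each line while those of Cct2 do not.

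The pair that shares a promoter region did not move in one ratio. The ratio of Hspe1 to Hspd1 per kb of coding sequence in total RNA was 1.79, 1.88, 1.82 and 1.79 in S51 vehicle and fell to 1.501, 1.54, 1.35 and 1.504 in S51 bortezomib. In S51A it went the other way, from 1.59, 1.56, 1.53 and 1.54 in vehicle to 1.88, 1.86, 1.81 and 1.89 in bortezomib. The groups of each line did not overlap. In footprints the ratio was 1.41, 1.04 and 1.53 in S51 vehicle and 1.61, 1.48, 1.36 and 1.37 in S51 bortezomib, which overlapped. It was 1.38, 1.29, 1.30 and 1.33 in S51A vehicle and 1.62, 1.61, 1.59 and 1.504 in S51A bortezomib, which did not. This ratio was chosen after its values were seen and is given without a test, and the pseudogenes of both genes and the overlap of their starts touch it.

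**Figure D4:**
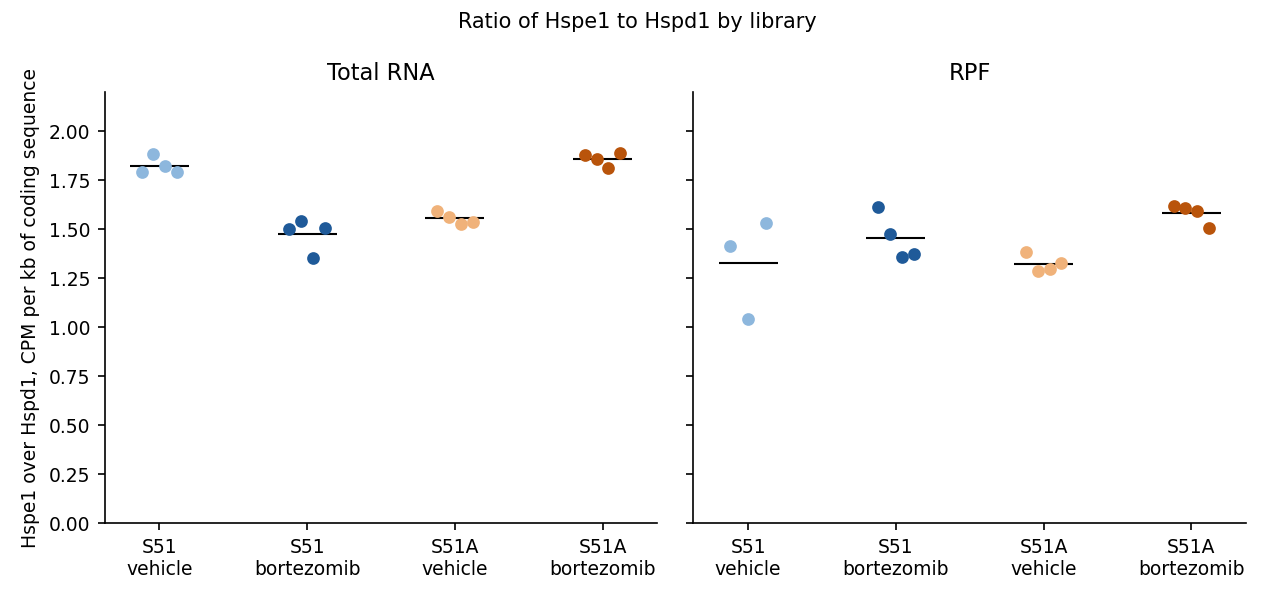
Ratio of Hspe1 to Hspd1 in CPM per kb of coding sequence (for RPF, of its counted part), with total RNA on the left and RPF on the right. There is 1 point per library and a bar at each group's mean. In total RNA the ratio falls with bortezomib in S51 and rises in S51A, and in RPF the S51 groups overlap.

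The genes around the chaperonins moved unevenly, and the shares of all genes called lower, beside those called higher above, were 16% in RPF in S51, 11.4% in RPF in S51A, 30.2% in RNA in S51 and 28.9% in RNA in S51A. Prefoldin hands actin and tubulin to TRiC, and of its 6 subunits 2 passed upward and 1 downward in S51 footprints, with Vbp1 at 0.53 and Pfdn5 at -0.65 on the log2 scale, and none in S51A. Pfdn5 RNA rose in the same S51 cells (0.13), and its TE fell (-0.79, SE 0.10, adjusted p = 1.1e-07 by edgeR). Without RPF S51 vehicle replicate 2, Pfdn5 stood at -0.66 in RPF and -0.80 in TE and still passed in both, whereas Vbp1 (0.29) did not pass, and 1 subunit passed upward and 1 downward. Of the phosducin-like and thioredoxin-like cofactors of TRiC, 3 of 4 were tested and 2 passed upward in both lines, Pdcl (0.68 in S51 and 0.37 in S51A) and Txndc9 (0.44 and 0.37), while Pdcl3 stood at -0.10 and -0.13. Without that library Pdcl (0.58) passed in S51 and Txndc9 (0.26) did not. The 16 TRiC substrates tested in RPF divided in S51, with 4 higher and 5 lower. The tubulin gene Tuba4a was highest (0.77), and Tubb5 lowest (-0.69) although its RNA rose (0.48), and its TE fell by 1.17 on the log2 scale. Without that library 3 passed upward and 4 downward, with Tuba4a at 0.77, Tubb5 at -0.57 and the TE change of Tubb5 at -1.05. In S51A, 3 substrates passed upward and 1 downward (4 and 2 without that library), and the footprint change of Tubb5 was 0.08. In total RNA, 11 of 17 substrates passed upward and 1 downward in S51, and 10 and 2 in S51A.

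Among 13 genes of the mitochondrial HSP70 system and proteases, 3 passed upward and 3 downward in S51 footprints and 1 and 2 in S51A. The lowest was Hscb, a co-chaperone of iron-sulfur cluster assembly (-1.46), and the highest Yme1l1, a protease of the inner membrane (0.67). Without RPF S51 vehicle replicate 2, 4 passed upward and 3 downward in S51, with Hscb at -1.42 and Yme1l1 at 0.33, and in S51A 2 passed in each direction. The cytosolic heat shock genes had the largest median change of these lists, with 11 of 12 passing upward and 1 downward in S51 and 10 upward in S51A, and medians of 1.79 and 1.90 on the log2 scale against 0.38 and 0.18 for the chaperonins. Hspa1a led them at 7.43 in S51, and Hsf1, the factor itself, was lowest at -0.52. Without the same library 10 passed upward in S51, with a median of 1.78 and Hspa1a at 7.38, and Hsf1 (-0.35) did not pass. Cct6b and Cct8l1, the TRiC-like genes outside the complex studied, had at most 5 and 0 counts in any library and were not tested.

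Across all 16 total RNA libraries, pairs of TRiC subunits had Pearson correlations of 0.86 to 0.99 in log2 CPM (28 pairs, median 0.97), and across the 15 RPF libraries 0.15 to 0.97 (median 0.70). Hspd1 and Hspe1 correlated at 0.92 in RNA and 0.98 in RPF. These describe 4 groups and their depths, not independent samples, and the RPF values carry the low replicate 2 of S51 vehicle. The genes whose RPF profile over the 15 libraries was most like the mean of TRiC were Hnrnpa2b1 (r = 0.98), Ywhae (0.98), Luc7l3 (0.97), Naa50 (0.97) and Dnaja2 (0.97). Those most like the mean of Hspd1 and Hspe1 were Med21 (0.96), Cacybp (0.96), the proteasome subunits Psmd6 (0.96) and Psmd12 (0.96), and Septin2 (0.95). Over the 8 subunits, Spearman's rho between the RNA and RPF responses was -0.43 in S51, -0.17 in S51 without RPF vehicle replicate 2, and 0.19 in S51A (across genes, n = 8).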

How the data were processed

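RPF (15 libraries) and total RNA (16) of mouse SCC cells were analysed. The authors deposited whole-number counts per gene, unnormalized, 1 table per kind. Per the study's methods, reads were aligned to mm10 with bowtie2 and counted with plastid, RPFs within coding sequence without the first 15 and last 5 codons. Per the labels' processing notes, Bowtie2, featureCounts and DESeq2 were used, with no versions. Per the file headers, rRNA and repeats were removed, duplicates marked and only uniquely mapped reads kept, which lowers genes with near-identical copies. Columns were tied to samples by number, with S51 bortezomib and S51A vehicle assigned by the note to the series on exchanged titles.

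Counts were fitted in R 4.3.3 with edgeR 4.0.16 (TMM, filterByExpr at 10 counts and a total of 15, 1 coefficient per group over all 4 groups, glmQLFTest), with Benjamini-Hochberg adjustment over all genes tested at 0.05. TE was the interaction of kind and group in 1 fit, which assumes 1 dispersion per gene for both kinds. Fits were tested on simulated counts with 1 dispersion per kind and no library that stood apart. That test does not cover a library like RPF S51 vehicle replicate 2. Fold limits were the study's, 1.5 (RPF, TE) and 2 (RNA). Names came from RefSeq for 20687 of 20704 and 24569 of 24593 identifiers. The members, lists and tests were chosen with earlier results of these data known. Named genes were all members, the tested genes with the highest and lowest RPF change in S51 of each other list, the 5 genes most like each mean profile, and Eif2s1. Txndc9, Cct6b, Cct8l1 and Krt17 fall outside this rule and were named after their values were seen. Alternatives included DESeq2 1.42.0, other scalings and filters, the groups compared alone, replicate blocks and each library left out.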

Additional observations from a re-analysis of the deposited data

Results flagged for a closer look

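Among 70 groups of 4 libraries of the 10 genes, 4 held a library far from the other 3 by Dixon's ratio at its 95% critical value, where chance flags about 1 in 20. Tcp1 stood at 811 RPF CPM in S51A bortezomib replicate 1, with the others between 684 and 697. Cct4 stood at 752 total RNA CPM in S51 bortezomib replicate 2 (others 709.5 to 715) and at 527 CPM in S51A bortezomib replicate 2 (others 503 to 506), and Cct5 at 770.02 CPM in S51A vehicle replicate 4 (others 759 to 760.4).

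The total RNA response to bortezomib differed between S51 and S51A, by the interaction test of edgeR, for Cct2 (0.16), Cct4 (0.27), Cct5 (0.13), Cct7 (0.14) and Hspe1 (-0.38), as S51 minus S51A on the log2 scale. The first 4 were larger in S51 and Hspe1 larger in S51A, and every bortezomib library lay above every vehicle library for all 5 in both lines.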

How the results depend on the processing

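Over the settings that left out no library, 84 of 93 counts of members past the test stayed within 1.5 times. The rest moved as follows, and the cause was not tested. Fitting only the groups compared gave 3 in RPF in S51 and 2 in RPF between the lines under bortezomib. Library sizes alone as scaling, which moved the median of all genes by -0.15 and -0.12 in RNA of S51 and S51A and by 0.15 in TE of S51, gave 3 for the difference of RNA responses and 1 for TE in S51 and for TE between the lines under bortezomib. DESeq2 gave 4 for TE in S51, 1 for TE in S51A and 4 for TE between the lines under bortezomib, which was also 4 with 10 counts required in every RPF library. That filter turned the RPF change of Cct2 in S51 to -0.019 and that of Cct4 to -0.017.

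With 1 library left out at a time, counts in RNA ran from 10 to 10 in both lines, from 9 to 10 between the lines under either treatment and from 3 to 7 for the difference of responses. In RPF they ran from 5 to 7 in S51, 4 to 5 in S51A, 0 to 3 and 0 to 4 between the lines under vehicle and bortezomib, and 0 to 1 for the difference. In TE they ran from 1 to 6 in S51, 0 to 3 in S51A (1 without S51A bortezomib replicate 1), 0 to 4 and 1 to 5 between the lines, and 0 to 1 for the difference. Single values that changed sign were RPF in S51 of Tcp1 (-0.10 to 0.25), Cct2 (-0.14 to 0.10) and Cct4 (-0.21 to 0.14), and TE in S51 of Cct3 (-0.045 to 0.11), Cct6a (-0.069 to 0.22), Cct8 (-0.12 to 0.25) and Hspe1 (-0.17 to 0.37).

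The labels tie a replicate number to no shared culture or day. Deviations of same-numbered RNA libraries correlated at 0.00 to 0.19 (median 0.09, 8 of 24 pairs over 0.1), and those of other numbers had a median of -0.03 (0 of 72). In RPF, same-numbered libraries correlated at -0.16 to 0.26 (median 0.03, 3 of 21 over 0.1). RPF and RNA with the same number correlated at -0.06 to 0.35 (8 of 15 over 0.1), and the study saved total RNA before digesting the rest of each lysate. Same-numbered RNA libraries were thus more alike than others by the median. Not every pair passed 0.1 and the main fits took no numbers as pairs, so they leave this likeness out. With the replicate block, 7 members passed in RPF in S51, 4 in S51A and 0 between the lines and for the difference. In RNA the block gave 10, 10, 10, 10 and, for the difference, 7, against 10, 10, 10, 9 and 5 without it. With the block by lysate, TE gave 2 in S51, 0 in S51A, 0 and 2 between the lines and 0 for the difference. RPF libraries held fewer counts than RNA libraries, and the part of this in the wider RPF and TE errors was not tested. Without RPF S51 vehicle replicate 2, the SE of the RPF change of Cct4 in S51A went from 0.126 to 0.065.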
